A study of Mus musculus with 26 samples.

Results

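The dual specificity MAP kinase phosphatases (DUSPs) described here are 9 genes, measured in the established mouse embryonic fibroblast line NIH3T3: Dusp1, Dusp4, Dusp5, Dusp6, Dusp7, Dusp8, Dusp10, Dusp14 and Dusp16. They were taken by their symbols, 9 of 20430 symbols in the RNA tables and 9 of 19941 in the footprint tables, and all 9 passed the filter on low counts in every fit. PolyA-selected RNA was sequenced in 16 libraries of 8 groups, and ribosome footprints (mRNA fragments covered by ribosomes) in 10 libraries of 5 groups, with 2 replicates in each group. Heat was applied at 44 °C for 2 h or at 42 °C for 8 h and had its own control. Oxidative stress by H2O2 and osmotic stress by KCl each lasted 2 h or 7 h and shared a control. Footprints were compared in the H2O2 and KCl groups and their control only, and heat footprints were not analysed here. The labels give no concentrations and no control temperature, and they name a single cell line and no genetic change. Nothing in the labels says that replicates came from separate cultures, so p-values measure the spread between these libraries, which may be technical.

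MAP kinases (ERK, JNK and p38) are switched on when a threonine and a tyrosine of their activation loop are phosphorylated. DUSPs remove both phosphates and so switch the kinases off, and many are themselves made in response to the pathway they restrain, which makes them negative feedback genes. Dusp1, Dusp4 and Dusp5 act in the nucleus, where Dusp5 is selective for ERK. Dusp6 and Dusp7 are cytoplasmic and prefer ERK, Dusp8, Dusp10 and Dusp16 prefer JNK and p38, and Dusp14 is a small atypical member without the kinase-binding domain of the others.

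Promoter sequence is shown for the 3 genes whose windows held the searched motifs most often, a choice made after the search, Dusp1, Dusp5 and Dusp8. Each line gives the 250 bases upstream of a transcription start, 5′ to 3′ on the strand of the gene, from RefSeq in build GRCm38.p6. Capitals mark every match, on either strand, to the cAMP response element (CRE, TGACGTCA), its half-site TGACG, the AP-1 site TGANTCA, the ETS site CCGGAAG, the E-box CACGTG, the heat shock element core TTCNNGAA and the CArG box, which serum response factor binds.
Dusp1, chr17:26508473-26508722, minus strand: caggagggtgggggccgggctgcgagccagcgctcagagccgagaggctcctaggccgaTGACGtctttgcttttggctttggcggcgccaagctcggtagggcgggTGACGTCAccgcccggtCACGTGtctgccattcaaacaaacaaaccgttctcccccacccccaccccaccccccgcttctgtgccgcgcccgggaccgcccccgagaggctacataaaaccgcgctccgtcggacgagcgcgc
Dusp5, chr19:53528895-53529144, plus strand: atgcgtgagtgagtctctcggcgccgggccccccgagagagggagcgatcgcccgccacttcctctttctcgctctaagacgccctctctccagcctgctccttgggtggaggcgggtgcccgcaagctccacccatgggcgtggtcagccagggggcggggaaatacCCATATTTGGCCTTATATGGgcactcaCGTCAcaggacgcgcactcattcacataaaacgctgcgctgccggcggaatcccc
Dusp8, chr7:142095285-142095534, minus strand: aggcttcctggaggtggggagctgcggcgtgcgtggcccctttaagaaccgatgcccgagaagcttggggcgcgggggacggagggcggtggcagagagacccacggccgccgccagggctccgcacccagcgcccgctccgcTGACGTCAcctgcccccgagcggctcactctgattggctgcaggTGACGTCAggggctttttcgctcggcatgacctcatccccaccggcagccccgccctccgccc

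The Dusp1 window held a CRE starting at position -143 from the transcription start, a separate half-site at -191 and an E-box at -126. The Dusp8 window held 2 CREs, at -107 and -63. The Dusp5 window held no full CRE but had 2 adjoining CArG boxes, at -82 and -72, and a half-site at -55. The promoter table matched 8 of the 9 genes, all but Dusp4. Of these 8 windows, 2 held a CRE (against 1.55% of 32851 mouse windows of this length), 4 a half-site, which lies within each CRE (17.8%), 1 an E-box (6.02%) and 1 a CArG box (1.47%). None of the 8 held the AP-1, ETS or heat shock letters, found in 6.75%, 6.91% and 7.17% of all windows. The 3 windows shown were 68.4%, 64.0% and 71.6% GC in the order printed, against a median of 52.4% over all windows. A match describes these letters and was not tested as a binding site.

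Depth was 24441877 to 45244430 expected counts per RNA library and 1460751 to 5168537 per footprint library, where the shallowest and the deepest were replicates 1 and 2 of H2O2 after 2 h. Replicates correlated across genes with Pearson's r of 0.994 to 0.996 for RNA and 0.957 to 0.978 for footprints, and every pair differed by more than sampling noise. All 6 fibroblast markers exceeded 1 TPM (a level scaled to transcript length and library total) in every RNA library, with a summed level of 3626 to 9638. Markers of other cell types were not all absent. The 3 epithelial markers summed to 7.71 to 18.4 TPM, mostly Krt18 (6.46 to 17.2), with Epcam at or below 1.12. The 3 leukocyte markers summed to 5.33 to 44.7 TPM, nearly all Cd68 (5.32 to 44.7), with Ptprc at or below 0.05 and Tyrobp listed at 0. The 3 endothelial markers summed to 0.34 to 3.18 TPM, with Cdh5 at or below 0.09, and the 3 muscle markers to 0.03 to 5.58. Their part in the results was not tested. In bulk libraries, fewer cells with a transcript and less of it per cell cannot be told apart.

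DUSP RNA was mostly higher at 42 °C, with H2O2 at both times and after 2 h of KCl. This was not so at 44 °C or after 7 h of KCl, and each gene had its own combination of stress and time. Called means an adjusted p under 0.05 in edgeR's quasi-likelihood test over all genes. At 44 °C 4 of the 9 were higher and 2 lower, where 35.4% of 12747 genes were called higher and 35.7% lower. At 42 °C 8 were higher and none lower, against 31.7% and 31.9% of genes. H2O2 gave 7 higher and 1 lower after 2 h, against 27.3% and 26.5% of 13256 genes, and again 7 and 1 after 7 h, against 39.4% and 31.1%. KCl gave 8 higher and 0 lower after 2 h (27.2% and 27.0% of genes), and 4 higher and 2 lower after 7 h (37.2% and 31.6%). The median log2 change of the 9 was 1.59 after 2 h of H2O2, 1.08 after 2 h of KCl and 0.80 at 42 °C, where the median of all genes lay between -0.01 and 0. It was 0.11 at 44 °C, 0.52 after 7 h of H2O2 and 0.061 after 7 h of KCl, against -0.00034, 0.075 and 0.039 over all genes. Between 2 h and 7 h, 2 of the 9 became higher and 6 lower with H2O2 (37.3% and 36.1% of genes), and none higher and 9 lower with KCl (35.1% and 33.7%). The H2O2 and KCl comparisons share their control libraries.

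**Figure D1:**
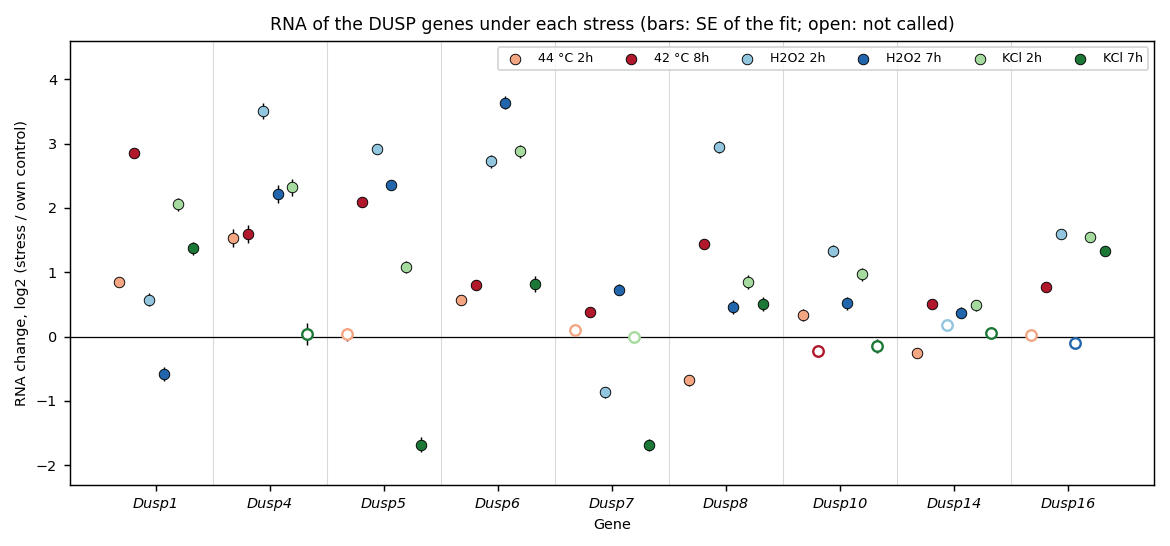
Log2 RNA change of each DUSP gene against its own control (vertical axis) for 6 stress groups (colours), with the SE of the fit as bars and open circles for changes not called. Dusp6 reached 3.63 after 7 h of H2O2 and Dusp4 3.51 after 2 h, while Dusp5 and Dusp7 lay at -1.68 and -1.69 after 7 h of KCl.

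Dusp1, a nuclear phosphatase and the founding inducible MAP kinase phosphatase, had its own largest RNA changes at 42 °C and with KCl. Levels here are CPM, counts scaled to library size after TMM normalization. Dusp1 RNA measured 17.98 and 19.6 CPM in the heat controls, against 33.3 and 34.3 CPM at 44 °C and 134 and 137 CPM at 42 °C. The rise was 7.23-fold at 42 °C (log2 change 2.85, SE 0.05, adjusted p = 3.4e-14) and 1.80-fold at 44 °C (0.85, SE 0.06, adjusted p = 1.3e-08). In the H2O2 and KCl experiment its control libraries stood at 37.6 and 37.6 CPM. KCl brought it to 167 and 146 after 2 h and 93.1 and 102 after 7 h, log2 changes of 2.06 (SE 0.10) and 1.38 (SE 0.10), adjusted p = 1.3e-09 and 3.6e-08. Under H2O2 it was 54.9 and 56.9 CPM after 2 h and 21.7 and 29.00 after 7 h. Both libraries lay above both controls after 2 h and below them after 7 h, log2 changes of 0.57 (SE 0.10) and -0.58 (SE 0.11), adjusted p = 0.00032 and 0.00026.

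Dusp4, a nuclear phosphatase of ERK, JNK and p38, started low and rose most under H2O2. Its control libraries held 3.08 and 3.41 CPM, against 34.8 and 39.02 after 2 h of H2O2, an 11.4-fold rise (log2 change 3.51, SE 0.13, adjusted p = 3.7e-11). It was 14.7 and 15.4 CPM after 7 h of H2O2, and after 2 h of KCl 15.1 and 17.2. These were log2 changes of 2.22 (SE 0.13) and 2.32 (SE 0.13), adjusted p = 2.3e-09 and 6.1e-09. After 7 h of KCl its libraries lay on either side of the controls, at 2.72 and 4.02 CPM, and the gene was not called (0.04, SE 0.17, adjusted p = 0.87). Heat took it from 1.95 and 2.01 CPM to 5.40 and 6.02 at 44 °C and 5.84 and 6.17 at 42 °C, log2 changes of 1.53 (SE 0.14) and 1.60 (SE 0.14), adjusted p = 2.5e-07 and 2.8e-07. At these low levels the log2(TPM + 1) scale put the 42 °C change at 1.05.

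Dusp5, the nuclear ERK phosphatase, differed more between H2O2 and KCl after 7 h than any other member. H2O2 raised it from 7.36 and 8.65 CPM to 59.8 and 60.8 after 2 h and 40.3 and 41.3 after 7 h, log2 changes of 2.92 (SE 0.08) and 2.36 (SE 0.08), adjusted p = 5.2e-12 and 7.9e-12. KCl raised it to 16.3 and 17.4 CPM after 2 h (1.08, SE 0.09, adjusted p = 2.2e-07). It had fallen below both controls by 7 h of KCl, to 2.54 and 2.43 CPM (-1.68, SE 0.12, adjusted p = 3.3e-08). In heat it was not called at 44 °C, with 6.55 and 6.55 CPM against 6.73 and 6.02 in the control (0.03, SE 0.10, adjusted p = 0.77), and rose at 42 °C to 28.3 and 26.3 CPM (2.10, SE 0.08, adjusted p = 7.3e-11).

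The cytoplasmic ERK phosphatases Dusp6 and Dusp7 changed in opposite directions after 2 h of H2O2 and after 7 h of KCl. Dusp6, a standard readout of ERK signalling, rose in all 6 comparisons with a control. Dusp1 and Dusp8 were also called in all 6, but each was lower in 1 of them. The Dusp6 control libraries held 4.34 and 5.01 CPM, against 31.5 and 30.00 after 2 h and 54.7 and 60.9 after 7 h of H2O2. The 7 h rise was 12.4-fold (log2 change 3.63, SE 0.10, adjusted p = 8.1e-13), and that after 2 h 2.72 (SE 0.10), adjusted p = 5.9e-11. KCl gave 32.2 and 36.2 CPM after 2 h and 7.79 and 8.70 after 7 h, log2 changes of 2.88 (SE 0.10) and 0.82 (SE 0.12), adjusted p = 7.5e-11 and 3.1e-05. Its heat responses were small, from 8.91 and 7.89 CPM in the control to 12.4 and 12.6 at 44 °C and 14.8 and 14.6 at 42 °C, with log2 changes of 0.57 (SE 0.08) and 0.80 (SE 0.08), adjusted p = 2.6e-05 and 1.3e-06.

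Dusp7, the close relative of Dusp6, fell early under H2O2, where the other called members rose. Its RNA went from 49.2 and 58.4 CPM in the control to 28.1 and 30.9 after 2 h of H2O2 and then up to 87.3 and 91.3 after 7 h. All 4 H2O2 libraries lay outside the control range, on opposite sides at the 2 times, with log2 changes of -0.87 (SE 0.08) and 0.73 (SE 0.08), adjusted p = 1.0e-06 and 1.3e-06. Under KCl it was not called after 2 h, at 53.9 and 52.95 CPM (-0.01, SE 0.08, adjusted p = 0.94), and fell by 7 h to 16.1 and 17.4 CPM (-1.69, SE 0.09, adjusted p = 1.7e-09). In heat it measured 55.7 and 57.9 CPM in the controls, 60.7 and 61.9 CPM at 44 °C and 71.6 and 75.9 CPM at 42 °C. The last was called higher (0.38, SE 0.05, adjusted p = 1.0e-05), though it shrank to 0.18 on the log2(TPM + 1) scale, on which the median of all genes was -0.16 at 42 °C. The 44 °C difference was not called (0.11, SE 0.05, adjusted p = 0.053), though it was with RLE size factors, with a replicate block and on log2(TPM + 1), at 0.12, 0.11 and 0.17 with adjusted p of 0.038, 0.030 and 0.015.

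Among the phosphatases of JNK and p38, Dusp8 peaked early under H2O2. It rose 7.70-fold after 2 h of H2O2, from 12.1 and 12.4 CPM to 88.1 and 101 (2.95, SE 0.10, adjusted p = 2.0e-11), and was down to 15.4 and 18.6 CPM after 7 h (0.46, SE 0.11, adjusted p = 0.0014). KCl took it to 21.3 and 22.9 CPM after 2 h, a smaller change than with H2O2, and to 18.5 and 16.4 after 7 h, log2 changes of 0.85 (SE 0.10) and 0.51 (SE 0.11), adjusted p = 1.1e-05 and 0.00068. On log2(TPM + 1) the 7 h value was 0.34. The 2 heat regimes moved it in opposite directions. From 17.2 and 18.2 CPM in the control it fell to 9.92 and 12.1 at 44 °C (-0.68, SE 0.09, adjusted p = 7.5e-06) and rose to 46.97 and 49.04 at 42 °C (1.44, SE 0.08, adjusted p = 1.5e-09).

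Dusp16, which restrains mainly JNK, rose in both stresses after 2 h and was still called after 7 h with KCl but not with H2O2. Its RNA was 38.97 and 38.4 CPM in the control, 112 and 121 after 2 h of H2O2 and 109 and 117 after 2 h of KCl, log2 changes of 1.59 (SE 0.07) and 1.55 (SE 0.07), adjusted p = 2.9e-10 and 5.4e-10. At 7 h it was 36.2 and 36.3 CPM with H2O2, just below the controls and not called (-0.10, SE 0.07, adjusted p = 0.25), and 92.1 and 103 with KCl (1.33, SE 0.07, adjusted p = 1.4e-09). Heat left it at 46.5 and 43.6 CPM at 44 °C, overlapping the control at 44.7 and 43.5 (0.03, SE 0.05, adjusted p = 0.60), and raised it to 76.2 and 73.8 at 42 °C (0.77, SE 0.05, adjusted p = 1.6e-08).

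Dusp10, a phosphatase of p38 and JNK known for its part in stress and immune signalling, rose in both stresses after 2 h. It went from 8.65 and 8.65 CPM to 20.7 and 22.6 with H2O2 and 17.8 and 16.1 with KCl, log2 changes of 1.33 (SE 0.09) and 0.97 (SE 0.10), adjusted p = 4.9e-08 and 1.6e-06. At 7 h it was 11.5 and 13.4 CPM with H2O2 (0.52, SE 0.10, adjusted p = 0.00034) and 8.11 and 7.55 with KCl (-0.14, SE 0.11, adjusted p = 0.27). It was the sole member not called at 42 °C, with 6.92 and 7.51 CPM against 8.04 and 8.76 in the heat control (-0.22, SE 0.09, adjusted p = 0.055). It was called lower there without the filter on low counts, with the replicate number as a block and on the log2(TPM + 1) scale, at -0.23, -0.22 and -0.35. At 44 °C it was 10.4 and 10.8 CPM and called higher (0.34, SE 0.09, adjusted p = 0.0033).

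Dusp14, the atypical member, had no RNA change against a control beyond 0.50 on the log2 scale. Its control libraries held 24.8 and 24.5 CPM. With H2O2 it was 26.5 and 29.4 after 2 h and 30.7 and 33.2 after 7 h, and with KCl 34.2 and 34.9 after 2 h and 27.7 and 23.6 after 7 h. It rose after 7 h of H2O2 (0.37, SE 0.08, adjusted p = 0.0012) and after 2 h of KCl (0.49, SE 0.08, adjusted p = 0.00022), and was not called after 2 h of H2O2 (0.18, SE 0.08, adjusted p = 0.082) or after 7 h of KCl (0.06, SE 0.09, adjusted p = 0.55). In heat it went from 23.5 and 23.8 CPM down to 18.9 and 20.8 at 44 °C (-0.25, SE 0.07, adjusted p = 0.0037) and up to 34.04 and 32.9 at 42 °C (0.50, SE 0.06, adjusted p = 9.3e-06). The fall at 44 °C was no longer called without the first 44 °C replicate (-0.18, adjusted p = 0.052), and on the log2(TPM + 1) scale the 42 °C change was 0.28.

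**Figure D2:**
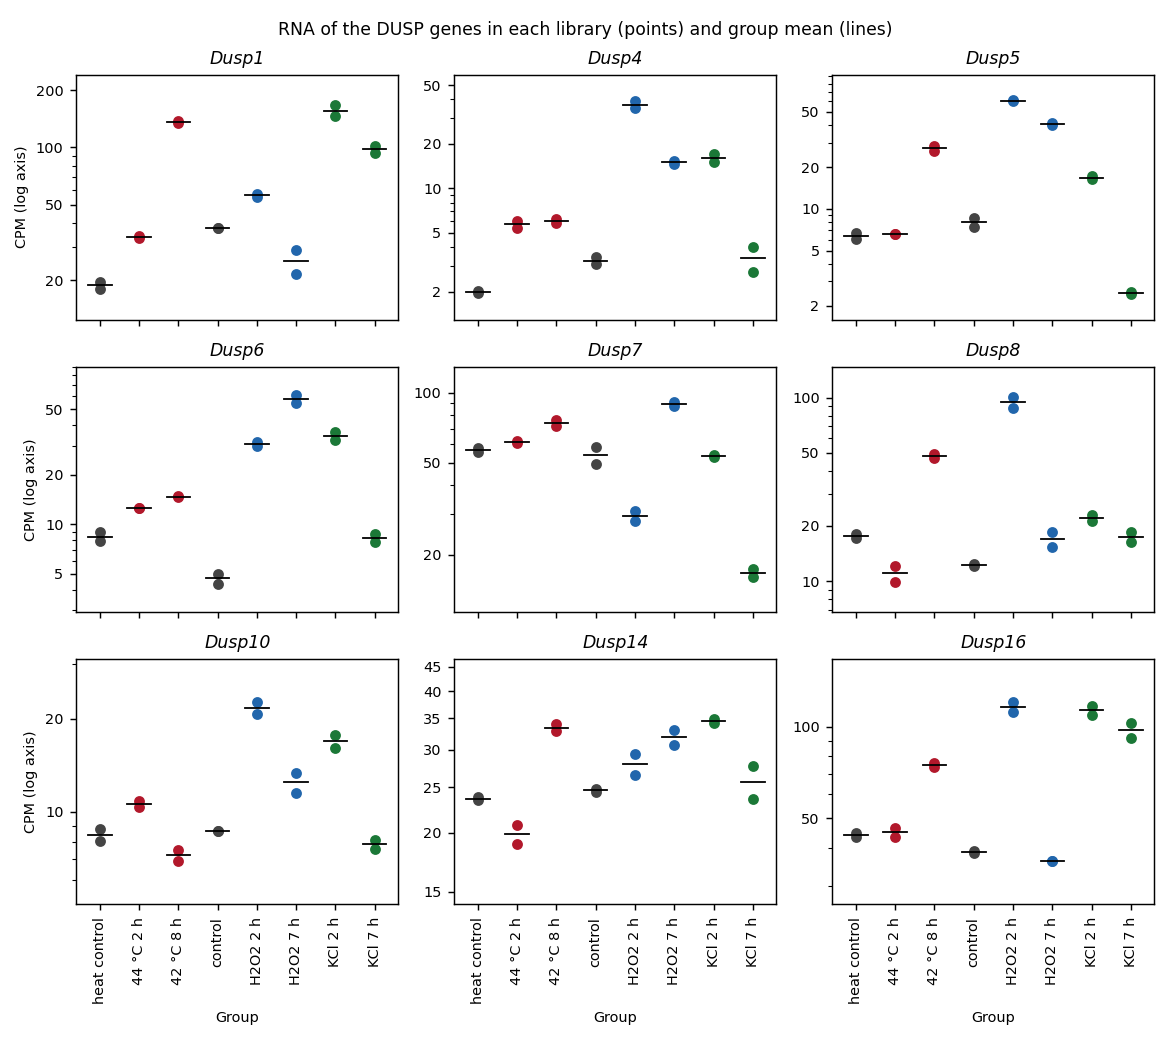
RNA level of each DUSP gene in CPM (log axis) in each of 16 libraries (points) by group, with group means as lines. Red, blue and green mark heat, H2O2 and KCl. Dusp5 libraries sat at 2.43 and 2.54 CPM after 7 h of KCl against 7.36 and 8.65 in the control, and Dusp8 libraries at 88.1 and 101 CPM after 2 h of H2O2 against 12.1 and 12.4.

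The stresses were also compared directly, without the shared control. At 2 h 4 of the 9 genes were higher with H2O2 than with KCl and 3 lower, where 27.0% of genes were called higher and 24.2% lower. Higher were Dusp8 (log2 difference 2.10, SE 0.10), Dusp5 (1.84, SE 0.08), Dusp4 (1.19, SE 0.11) and Dusp10 (0.36, SE 0.09). Lower were Dusp1 (-1.49, SE 0.10), Dusp7 (-0.86, SE 0.09) and Dusp14 (-0.31, SE 0.08). Dusp6 and Dusp16, called against the control in both stresses, differed between them by -0.15 (SE 0.09) and 0.04 (SE 0.07), adjusted p = 0.16 and 0.63. The Dusp10 call was lost without the second H2O2 replicate (0.29, adjusted p = 0.057) or the second KCl replicate (0.28, adjusted p = 0.052), and the Dusp14 call without the first H2O2 replicate (-0.24, adjusted p = 0.071) or on the log2(TPM + 1) scale (-0.20, adjusted p = 0.072).

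At 7 h the ERK phosphatases and Dusp4 stood far apart between the stresses, with 6 genes higher and 2 lower with H2O2 (41.0% and 37.4% of genes). Dusp5 was 16.4-fold higher with H2O2 than with KCl (4.03, SE 0.11, adjusted p = 4.1e-13), Dusp6 7.03-fold (2.81, SE 0.10, adjusted p = 5.6e-12), Dusp7 5.34-fold (2.42, SE 0.09, adjusted p = 9.4e-12) and Dusp4 4.54-fold (2.18, SE 0.15, adjusted p = 5.1e-09). Dusp1 and Dusp16 were lower with H2O2, with log2 differences of -1.96 (SE 0.11) and -1.43 (SE 0.07), adjusted p = 5.7e-10 and 2.0e-10. Dusp10 (0.66, SE 0.11) and Dusp14 (0.31, SE 0.09) were slightly higher, and Dusp8 did not pass the test (-0.05, SE 0.11, adjusted p = 0.67). Without the second KCl replicate the Dusp14 call was lost (0.20, adjusted p = 0.070).

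The heat regimes were compared in the same way, although they differ in both temperature and duration. At 42 °C for 8 h 7 genes were higher and 1 lower than at 44 °C for 2 h, where 37.9% of genes were called higher and 37.2% lower. Dusp8, Dusp5 and Dusp1 differed most, by 2.12 (SE 0.08), 2.06 (SE 0.08) and 2.01 (SE 0.05) on the log2 scale. Dusp14 (0.75, SE 0.07) and Dusp16 (0.74, SE 0.05) were higher by less, and by 0.47 and 0.46 on the log2(TPM + 1) scale. Dusp10 was lower (-0.56, SE 0.09), and Dusp4 was not called, with overlapping libraries (0.07, SE 0.12, adjusted p = 0.62). Dusp6 (0.23, SE 0.08) and Dusp7 (0.27, SE 0.05) were called higher but stood at -0.016 and 0.01, not called, on the log2(TPM + 1) scale, whose all-gene median was -0.20. The Dusp6 call was also lost with DESeq2 (0.23, adjusted p = 0.10) and without the first replicate at 42 °C (0.23, adjusted p = 0.067) or at 44 °C (0.23, adjusted p = 0.051).

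Footprints on the DUSP genes followed their RNA only in part, and so did those of genes at large. After 2 h of H2O2 3 of the 9 were higher and none lower, where 1.14% of 10545 genes were called higher and 0.768% lower. After 7 h of H2O2 3 were higher and 1 lower (17.2% and 10.6% of genes). KCl gave 1 higher and 2 lower after 2 h (1.79% and 5.06%), and 2 higher and 3 lower after 7 h (10.5% and 9.83%). Between 2 h and 7 h, 1 became higher and 3 lower with H2O2 (18.7% and 11.1%), and none higher and 3 lower with KCl (12.1% and 8.43%). Of the 7 genes whose RNA rose after 2 h of H2O2, 3 also rose in footprints, as did 4.11% of the 2406 genes with risen RNA in both fits. After 2 h of KCl this held for 1 of 8, against 5.89% of 2905. At 7 h it held for 3 of 7 with H2O2 (41.4% of 4103) and for 2 of 4 with KCl (25.8% of 4105).

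Dusp1 footprints rose with its RNA under KCl, in every alternative run. They measured 36.4 and 44.2 CPM in the control, 222 and 194 after 2 h of KCl and 159 and 125 after 7 h. All 4 KCl libraries lay above both controls (2.37, SE 0.30, adjusted p = 0.00073, and 1.81, SE 0.29, adjusted p = 0.0014). With H2O2 they were 148 and 84.8 CPM after 2 h (1.5, SE 0.29, adjusted p = 0.021) and 46.4 and 76.3 after 7 h (0.61, SE 0.29, adjusted p = 0.14). The 7 h libraries also lay above the controls, where its RNA had fallen, but the footprint difference was not called.

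Dusp4 and Dusp8 footprints rose after 2 h of H2O2. Dusp4 went from 11.2 and 12.9 CPM to 34.7 and 31.2 (1.44, SE 0.27, adjusted p = 0.018) and was 20.2 and 22.5 after 7 h (0.82, SE 0.27, adjusted p = 0.038). With KCl it was 16.8 and 10.4 CPM after 2 h and 6.76 and 6.52 after 7 h, neither called (0.17 and -0.86, adjusted p = 0.80 and 0.067). Dusp8 went from 8.32 and 9.62 CPM to 43.4 and 23.9 after 2 h of H2O2 (1.84, SE 0.35, adjusted p = 0.019) and was 12.5 and 19.01 after 7 h (0.81, SE 0.36, adjusted p = 0.11), 6.71 and 10.1 after 2 h of KCl and 6.39 and 6.24 after 7 h (-0.09 and -0.50, neither called). The 3 calls after 2 h of H2O2 (Dusp1, Dusp4, Dusp8) were lost without either control replicate, without the first H2O2 replicate (1.07, 1.37 and 1.41, adjusted p = 0.10, 0.054 and 0.076) and on the log2(TPM + 1) scale, and that of Dusp4 also without the second H2O2 replicate (1.51, adjusted p = 0.050). Over those settings their adjusted p was 0.050 to 0.14.

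Dusp5 was the gene with the deepest footprint loss. Its footprints were 92.7 and 148 CPM in the control and overlapped these levels with H2O2, at 101 and 122 after 2 h (-0.09, SE 0.26, adjusted p = 0.91) and 122 and 147 after 7 h (0.16, SE 0.26, adjusted p = 0.68), groups whose RNA rose 7.56-fold and 5.12-fold. With KCl they fell to 60.7 and 35.8 CPM after 2 h (-1.31, SE 0.27, adjusted p = 0.012), while its RNA rose, and to 9.77 and 9.64 after 7 h (-3.63, SE 0.32, adjusted p = 2.0e-05). The 7 h fall held in every alternative run, and that after 2 h was lost without the second KCl replicate (-0.98, adjusted p = 0.13) or the second control (-0.94, adjusted p = 0.10).

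Dusp6 footprints were 58.2 and 52.5 CPM in the control and 23.3 and 71.97 after 2 h of H2O2, where the replicates lay on either side of the controls (-0.12, SE 0.38, adjusted p = 0.92). After 7 h of H2O2 they were 93.4 and 115 (0.91, SE 0.37, adjusted p = 0.086), and after 2 h of KCl 136 and 75.1 (0.93, SE 0.37, adjusted p = 0.18), above the controls but not called. Without the low-count filter the 7 h difference was called (0.88, adjusted p = 0.042). KCl lowered them by 7 h to 22.2 and 17.9 CPM (-1.47, SE 0.41, adjusted p = 0.023). This last call was lost without any 1 of the 4 libraries compared and on the log2(TPM + 1) scale, at -1.63 to -1.32 with adjusted p of 0.053 to 0.16.

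Dusp7 footprints moved with its RNA after 7 h. From 24.5 and 32.4 CPM they rose to 67.2 and 69.99 after 7 h of H2O2 (1.27, SE 0.26, adjusted p = 0.0027) and fell to 10.1 and 9.08 after 7 h of KCl (-1.56, SE 0.30, adjusted p = 0.0037), both in every alternative run. They were 18.7 and 9.89 CPM after 2 h of H2O2, below the controls but not called (-1.12, SE 0.30, adjusted p = 0.075), and called without the first, shallowest replicate (-1.52, adjusted p = 0.029) or without the low-count filter (-1.12, 0.044). They fell to 9.39 and 10.8 CPM after 2 h of KCl (-1.49, SE 0.30, adjusted p = 0.010), where its RNA was not called. That fall was lost without the first KCl replicate (-1.39, adjusted p = 0.090), the second (-1.59, adjusted p = 0.061) or the second control (-1.27, adjusted p = 0.062).

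For Dusp10, Dusp14 and Dusp16 the footprint differences lay between -0.64 and 0.80. Dusp16 measured 28.9 and 32.97 CPM in the control. With H2O2 it was 37.3 and 41.3 after 2 h and 19.1 and 20.4 after 7 h, and with KCl 44.6 and 33.4 after 2 h and 49.2 and 56.2 after 7 h. It was called lower after 7 h of H2O2 (-0.64, SE 0.23, adjusted p = 0.049) and higher after 7 h of KCl (0.77, SE 0.22, adjusted p = 0.023). Dusp10 measured 15.2 and 12.6 CPM in the control, 24.7 and 23.3 after 2 h of H2O2, not called (0.77), and 21.9 and 26.8 after 7 h, called higher (0.80, SE 0.25, adjusted p = 0.030). With KCl Dusp10 was 14.4 and 10.8 CPM after 2 h and 13.5 and 13.3 after 7 h, neither called (-0.14 and -0.05). Dusp14 was not called in any of the 4 comparisons and ranged from 28.5 to 52.0 CPM over the 10 libraries. The 7 h H2O2 calls of Dusp4, Dusp10 and Dusp16 were each lost without any 1 of the 4 libraries compared, with DESeq2 and without the low-count filter, at adjusted p of 0.051 to 0.22. The Dusp16 fall was lost in all 9 alternatives, at up to 0.29 with a value of -0.38 on log2(TPM + 1), and its rise with KCl without any 1 of the 4 libraries and on the log2(TPM + 1) scale, at 0.056 to 0.14.

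**Figure D3:**
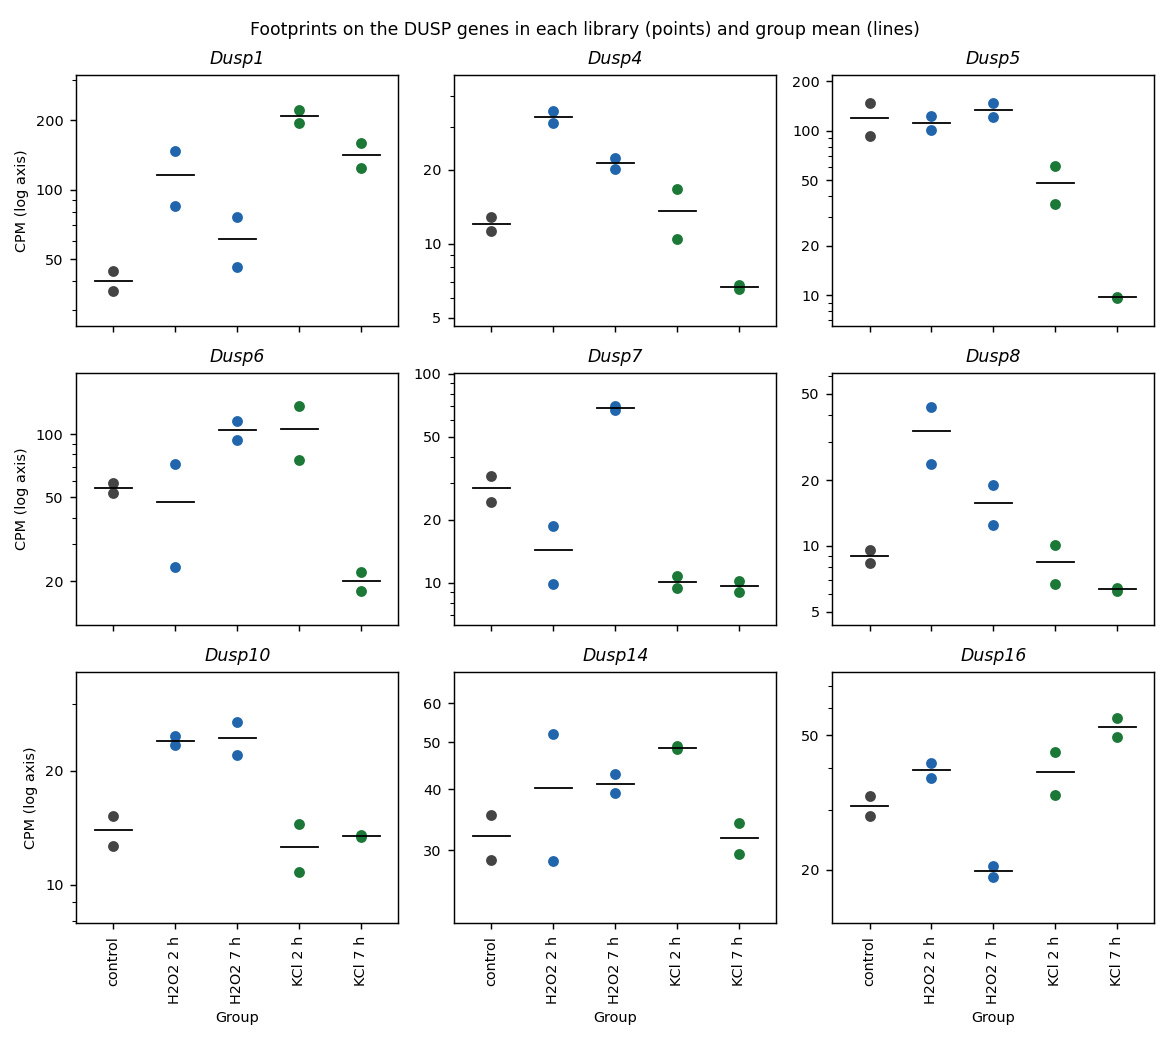
Footprint level of each DUSP gene in CPM (log axis) in each of 10 libraries (points) by group, with group means as lines. Dusp5 libraries sat at 9.64 and 9.77 CPM after 7 h of KCl against 92.7 and 148 in the control, and Dusp7 libraries at 67.2 and 69.99 CPM after 7 h of H2O2 against 24.5 and 32.4.

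Compared directly, footprints of Dusp8 (1.94, SE 0.36), Dusp4 (1.26, SE 0.27) and Dusp5 (1.22, SE 0.28) were higher with H2O2 than with KCl after 2 h, 3 of the 9 where 3.03% of genes were called higher and 2.10% lower. Each of the 3 was called in the same direction in RNA. At 7 h 6 were higher with H2O2 and 2 lower (23.5% and 17.8%). The largest were Dusp5 (3.79, SE 0.32, adjusted p = 2.5e-06), Dusp7 (2.84, SE 0.29, adjusted p = 1.1e-05), Dusp6 (2.39, SE 0.41, adjusted p = 0.00051) and Dusp4 (1.68, SE 0.30, adjusted p = 0.00068), and the 2 lower were Dusp16 (-1.42, SE 0.22, adjusted p = 0.00029) and Dusp1 (-1.21, SE 0.29, adjusted p = 0.0045). Dusp8 (1.32, SE 0.38) and Dusp10 (0.86, SE 0.26) were also higher. At 2 h the calls were lost without the first H2O2 replicate for Dusp4 (1.19, adjusted p = 0.060), the second for Dusp5 (1.06, 0.096), the second KCl replicate for both (0.96 and 0.89, 0.17 and 0.20) and the first for Dusp8 (1.67, 0.096), and on log2(TPM + 1) for Dusp5 (1.22, 0.053). Leaving out an H2O2 replicate also gave calls, of Dusp1 without the first (-1.30, 0.038) and of Dusp6 without the second (-2.18, 0.014), against -0.86 and -1.05 with both, as did no low-count filter for Dusp1 (-0.86, 0.048). At 7 h that of Dusp1 was lost without the first H2O2 replicate (-0.94, 0.054), and those of Dusp8 and Dusp10 without the second (0.94 and 0.66, 0.14 and 0.15) or either KCl replicate (0.84 to 1.32, 0.066 to 0.086), and that of Dusp10 with DESeq2 (0.84, 0.067).

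Translational efficiency, here footprints relative to RNA of the same gene, was lower for most of the members whose RNA rose at 2 h, though not for most of those whose RNA rose at 7 h. After 2 h of H2O2 5 of the 9 genes had a lower efficiency and none a higher one, where 7.46% of 10480 genes were called lower and 3.98% higher. After 2 h of KCl 6 were lower and none higher (9.18% and 3.58% of genes). At 7 h 3 were lower and 1 higher with H2O2 (4.57% and 4.69%), and 2 lower and none higher with KCl (3.88% and 1.69%). Of the 7 genes with risen RNA after 2 h of H2O2, 5 had a lower efficiency, as did 22.5% of all 2406 genes with risen RNA. With KCl it was 5 of 8, against 20.7% of 2905. At 7 h it was 3 of 7 with H2O2, against 9.16% of 4103, and 1 of 4 with KCl, against 6.60% of 4105. The RNA values enter both measures, and H2O2 and KCl share the control, so these counts are not independent of each other. Genes were also not matched for the size of their RNA change. Its median absolute log2 value after 2 h was 1.59 for the members and 0.27 for all genes with H2O2, and 1.08 and 0.31 with KCl.

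Dusp4, Dusp5 and Dusp6 carried the largest efficiency changes with H2O2 at both times and with KCl after 2 h. Efficiency of Dusp5 fell most after 2 h of H2O2 (log2 change -3.03, SE 0.28, adjusted p = 7.9e-06), and its changes after 7 h of H2O2, 2 h of KCl and 7 h of KCl were -2.18 (SE 0.28), -2.39 (SE 0.30) and -1.92 (SE 0.40). For Dusp6 the changes were -2.78 (SE 0.42) after 2 h of H2O2, -2.72 (SE 0.40) after 7 h, -1.95 (SE 0.41) after 2 h of KCl and -2.27 (SE 0.47) after 7 h. For Dusp4 they were -2.12 (SE 0.28), -1.39 (SE 0.28) and -2.15 (SE 0.31) in the first 3 of these groups, and -0.87 (SE 0.36), not called, after 7 h of KCl. The calls of these 3 genes after 2 h and 7 h of H2O2 and after 2 h of KCl held in all 12 alternatives. After 7 h of KCl those of Dusp5 and Dusp6 were lost without the second KCl footprint library (-1.91, adjusted p = 0.057, and -2.11, adjusted p = 0.059).

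These 3 genes also began from a high ratio. In the control, footprint TPM over RNA TPM was 13.1 for Dusp6, 6.41 for Dusp5 and 3.38 for Dusp4, at the 99.4, 98.8 and 97.1 percentiles of 10480 genes. Dusp6 held 3.45 and 4.02 TPM of RNA and 52.7 and 45.2 TPM of footprints in the 2 control libraries, and Dusp5 14.9 and 17.7 TPM of RNA and 83.2 and 126 TPM of footprints. The length scaling of Dusp5 differed between the assays. Its control means were 8.01 CPM and 16.3 TPM in RNA, but 120 CPM and 105 TPM in footprints. The Dusp5 ratio, its percentile and its place below Dusp6 depend on that scaling. Under stress the Dusp6 ratio was 1.63 and 2.28 after 2 h and 7 h of H2O2 and 3.54 and 2.82 after 2 h and 7 h of KCl. For Dusp5 it was 0.760, 1.61, 1.29 and 1.76 in the same order, and for Dusp4 0.776, 1.47, 0.796 and 1.87. Every pairing of single libraries gave a lower ratio under stress than in the control for these genes. The control ratio is part of each efficiency change, so the high start and the fall are not separate observations.

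The other members began lower, and their ratios are given to set levels per length. Control ratios were 1.54 for Dusp14, 1.33 for Dusp10, 0.877 for Dusp16, 0.843 for Dusp1, 0.753 for Dusp8 and 0.602 for Dusp7. In order of control RNA per length, Dusp1 (43.7 and 44.1 TPM), Dusp14 (38.3 and 38.1) and Dusp7 (33.9 and 40.6) led, with Dusp7 and Dusp14 overlapping. Dusp16 (17.6 and 17.3) and Dusp5 (14.9 and 17.7) overlapped next. Dusp10 (7.09 and 7.22), Dusp8 (5.71 and 5.92), Dusp6 (3.45 and 4.02) and Dusp4 (2.84 and 3.17) followed with no overlap among them.

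Efficiency of Dusp16 was lower after 2 h of both stresses (-1.25, SE 0.20, adjusted p = 0.00082, and -1.22, SE 0.20, adjusted p = 0.00062), in every alternative, with ratios of 0.353 and 0.395. Dusp7 efficiency was called after 2 h of KCl (-1.49, SE 0.27, adjusted p = 0.0016), where its ratio was 0.222. Dusp10 was called lower after 2 h of KCl (-1.12, SE 0.25, adjusted p = 0.0060), a call lost without the first control footprint library (-0.98, adjusted p = 0.050) and with limma voom (-1.13, adjusted p = 0.060). Dusp8 was called lower after 2 h of H2O2 (-1.25, SE 0.34, adjusted p = 0.024) and Dusp1 higher after 7 h of H2O2 (1.18, SE 0.33, adjusted p = 0.033), the 1 rise among these calls. Both depended on single libraries. The Dusp8 call was lost in 7 of 12 alternatives, among them without the second H2O2 footprint library (-0.72, adjusted p = 0.13), either footprint control, either RNA control or the second H2O2 RNA library, at adjusted p of 0.056 to 0.13. The Dusp1 call was lost in 6, among them without the second H2O2 footprint library (0.78, adjusted p = 0.20), the first footprint control, either RNA control or the first H2O2 RNA library, at 0.064 to 0.20. Dusp1 was not called after 2 h (0.86, SE 0.33, adjusted p = 0.096) but was called higher there without the second H2O2 footprint library (1.26, adjusted p = 0.011) or the low-count filter (0.91, 0.043). Dusp14 stayed between -0.05 and 0.11 on the log2 scale in all 4 comparisons, and none was called.

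**Figure D4:**
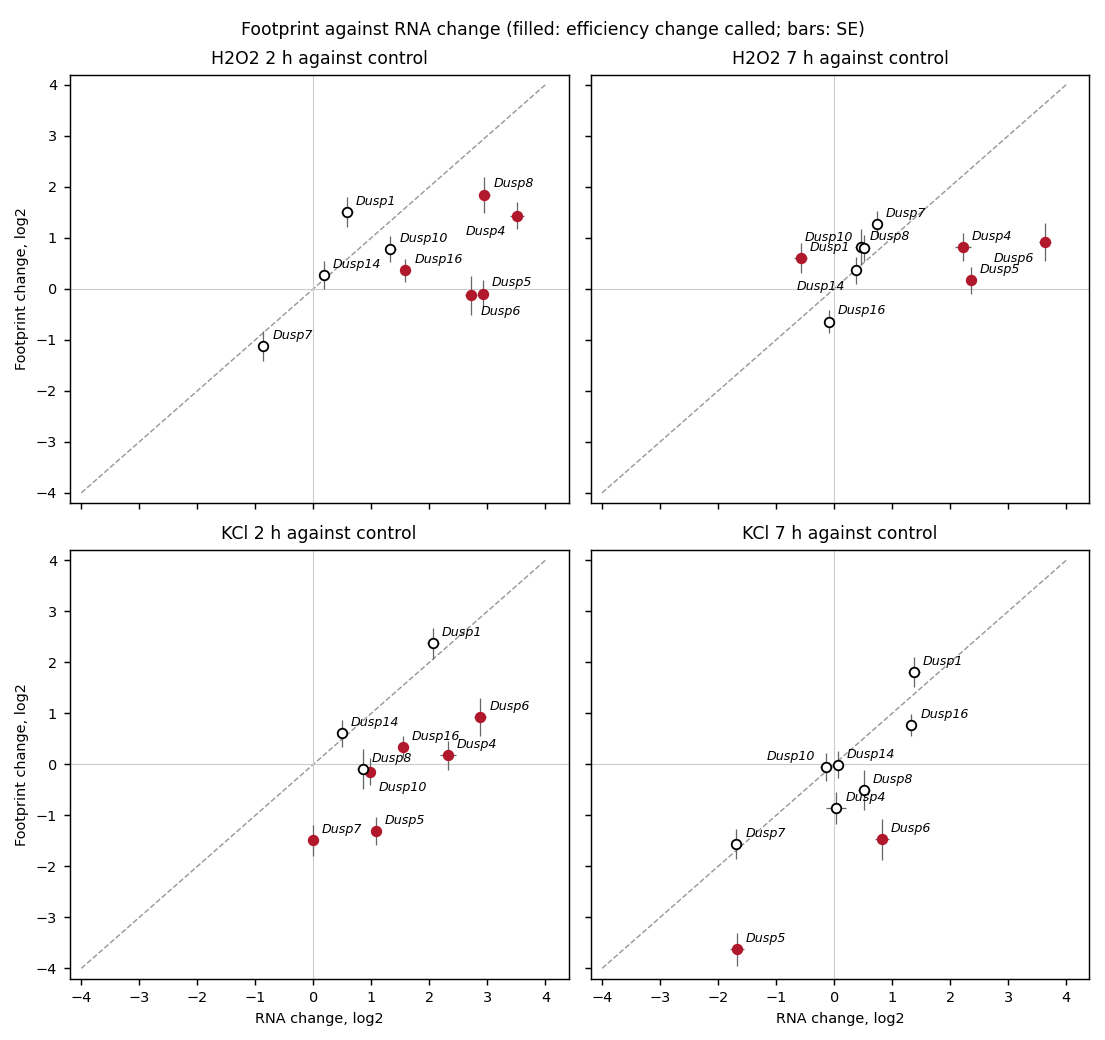
Log2 footprint change (vertical axis) against log2 RNA change (horizontal axis) of the DUSP genes in 4 stress groups, with SE bars and filled points where the efficiency change was called. Points on the dashed diagonal changed equally in both. Dusp5 after 2 h of H2O2 lies at 2.92 in RNA and -0.09 in footprints.

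**Figure D5:**
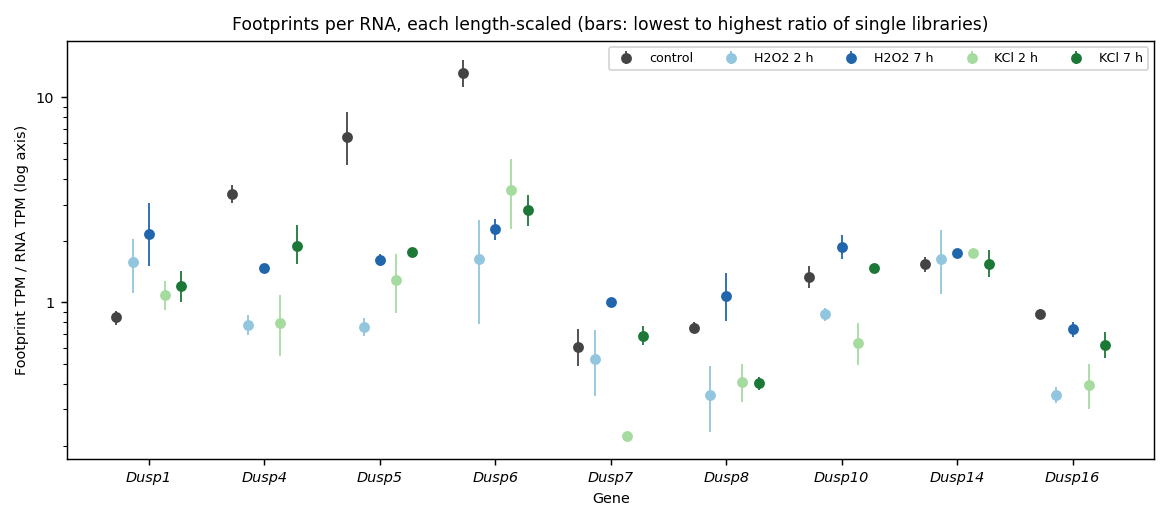
Ratio of footprint TPM to RNA TPM (log axis) for each DUSP gene in 5 groups (colours), as the ratio of group means, with bars from the lowest to the highest ratio of single libraries. In the control Dusp6, Dusp5 and Dusp4 stood at 13.1, 6.41 and 3.38, above all 4 stress groups of the same gene.

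The wider pathway was followed through 4 lists of other genes, read against the called shares given above. Of 12 ERK feedback genes other than DUSPs (Sprouty and Spred inhibitors, Etv factors and others), 10 were tested in the H2O2 and KCl fit. With H2O2 7 rose and 1 fell after 2 h and 8 rose and 1 fell after 7 h, with median log2 changes of 0.92 and 1.10. With KCl 7 rose and none fell after 2 h, and 3 rose and 5 fell after 7 h, with medians of 0.33 and -0.28. Spry2, an inhibitor of receptor tyrosine kinase signalling, rose most after 2 h of H2O2 (3.45, SE 0.08, adjusted p = 1.2e-12), from 14.2 and 15.96 CPM to 167 and 164. Etv5, an ETS factor downstream of ERK, rose most after 7 h (2.59, SE 0.09, adjusted p = 3.7e-12), and Spry4, of the same family as Spry2, after 2 h of KCl (2.36, SE 0.15, adjusted p = 1.1e-08). After 7 h of KCl Spry1 fell most (-1.38, SE 0.36, adjusted p = 0.0033) and Il17rd rose most (0.29). Il17rd was the 1 that fell at each time of H2O2 (-0.38 and -0.90). In heat the list was split, 3 up and 3 down of 11 tested at 44 °C and 3 up and 4 down at 42 °C, where Spry2 rose most (1.03, SE 0.07, adjusted p = 1.7e-08) and Etv1 fell most (-1.62, SE 0.58, adjusted p = 0.025). At 44 °C these were Etv5 (0.43) and Errfi1 (-0.37).

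Efficiency of these feedback genes was lower as well. Of 9 tested, 7 were lower and none higher after 2 h of H2O2, 5 lower and 1 higher after 7 h, 6 lower and none higher after 2 h of KCl, and 3 lower and none higher after 7 h. Of all genes, 7.46%, 4.57%, 9.18% and 3.88% were called lower in that order, and 3.98%, 4.69%, 3.58% and 1.69% higher. The feedback genes had median log2 efficiency changes of -1.58, -1.37, -1.48 and -0.88, where the medians of all genes lay between -0.02 and 0.06. Neither this list nor the others were matched to other genes for the size of their RNA change. Spry4 had the lowest value in each of the 4 comparisons, at -2.54, -2.65, -2.63 and -2.31. Il17rd, an inhibitor of FGF signalling, was the 1 that rose, after 7 h of H2O2 (1.15, SE 0.30, adjusted p = 0.021).

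Of 14 transcription factors that MAP kinases phosphorylate or induce, 12 rose and 1 fell after 2 h of H2O2, 7 rose and 4 fell after 7 h, 12 rose and 2 fell after 2 h of KCl, and 9 rose and 3 fell after 7 h. At 44 °C 4 rose and 9 fell, and at 42 °C 8 rose and 2 fell. Atf3, a stress-induced bZIP factor, rose most after 2 h of H2O2 (5.06, SE 0.09, adjusted p = 3.4e-13), from 8.67 and 8.65 CPM to 287 and 289.6, and at 42 °C (4.21, SE 0.06, adjusted p = 5.9e-15), as it did after 2 h of KCl (2.25) and at 44 °C (0.97). After 7 h of H2O2 Fosl1, an AP-1 subunit, rose most (3.14, SE 0.07, adjusted p = 2.0e-13), and after 7 h of KCl Egr1, an immediate early factor, fell most (-1.98, SE 0.09, adjusted p = 4.9e-10) and Elk4 rose most (1.72). Elk1 fell most after 7 h of H2O2 (-0.69), after 2 h of KCl (-0.45) and at 42 °C (-0.45), Elk3 after 2 h of H2O2 (-0.28) and Myc at 44 °C (-0.83). Efficiency was lower for 6, 4, 6 and 4 of the 14 in the order of 2 h and 7 h of H2O2 and 2 h and 7 h of KCl, and higher for none. The largest falls were Fosl1 (-2.62), Myc (-2.41), Srf (-2.3) and Elk4 (-2.61) in that order.

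The kinases of the cascade changed in both directions, as did genes at large. Over the comparisons with a control, 27.2% to 39.4% of all genes tested were called higher in RNA and 26.5% to 35.7% lower. Of 38 tested, 5 rose and 14 fell after 2 h of H2O2, 14 rose and 14 fell after 7 h, 8 rose and 11 fell after 2 h of KCl, and 19 rose and 12 fell after 7 h, with median log2 changes between -0.13 and 0.16. At 44 °C 15 rose and 17 fell, and at 42 °C 15 rose and 9 fell. Map3k6, an upstream kinase of the stress pathways, rose most with H2O2, after 2 h (0.68) and after 7 h (2.18, SE 0.09, adjusted p = 6.0e-11), and had the largest fall after 7 h of KCl (-1.32, SE 0.12, adjusted p = 2.5e-07). Map3k8, an activator of the ERK pathway, rose most after 2 h of KCl (1.54, SE 0.14, adjusted p = 4.0e-07). Map3k2 rose most after 7 h of KCl (1.06) and at 44 °C (0.81), and Map3k1 at 42 °C (0.68). The other largest falls were Map3k12 and Rps6ka1 after 2 h and 7 h of H2O2 (-1.20 and -0.93), Mapk11, a p38 kinase, after 2 h of KCl (-0.79), Rps6ka4 at 44 °C (-0.96) and Mapk7 at 42 °C (-0.48). Their efficiency was lower for 5, 1, 10 and 3 of the 38 after 2 h and 7 h of H2O2 and 2 h and 7 h of KCl, and higher for 0, 0, 1 and 1. The largest falls were Mapkapk5 (-1.92) after 2 h of H2O2, Map2k3 (-0.82) after 7 h and Mapkapk3 (-2.34) after 2 h of KCl, and Mapk8, which encodes a JNK, was the 1 that rose with KCl (0.60 and 0.65).

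Of 20 other dual specificity and MAP kinase tyrosine phosphatases, 16 were tested with H2O2 and KCl and 13 in heat. Of these, 5 rose and 2 fell after 2 h of H2O2, 6 and 5 after 7 h, 4 and 3 after 2 h of KCl, 3 and 4 after 7 h, 3 and 4 at 44 °C, and 5 and 2 at 42 °C. Dusp2, a nuclear inducible phosphatase related to Dusp1 and Dusp4, rose most after 2 h of H2O2 (5.21, SE 0.40, adjusted p = 1.1e-07), from only 3 and 3 counts in the control libraries to 73 and 105. It also rose most after 2 h of KCl (2.48) and at 42 °C (1.24). Dusp15 rose most after 7 h of H2O2 and Ptprr after 7 h of KCl, both from almost no reads, with 0 and 0 counts in the controls against 22 and 12 for Dusp15 and 1 and 0 against 13 and 11 for Ptprr. Ptpn5 rose most at 44 °C (1.74) and had the largest fall after 7 h of H2O2 (-1.56), there from 27 and 13 counts to 8 and 1. The other largest falls were Dusp22 after 2 h of H2O2 (-0.33) and at 44 °C (-0.87), Dusp23 after 2 h of KCl (-0.96) and at 42 °C (-1.16), and Dusp19 after 7 h of KCl (-1.04). Of the 9 tested for efficiency, Dusp2 was lower after 7 h of H2O2 (-3.13, SE 0.83, adjusted p = 0.025). It was also lower after 2 h of KCl (-4.43, SE 1.20, adjusted p = 0.021). Both values rest on the 3 and 3 RNA counts of Dusp2 in the control libraries. None of the 9 was called in the other comparisons.

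The RNA patterns of the DUSPs were compared with those of about 9825 genes with at least 5 CPM, over 16 libraries centred on their own controls. The correlation is a description over libraries that share controls. Most like Dusp1 were Ppm1g, Lama5 and Prkar2a, with Pearson's r of 0.94 to 0.95, and most like Dusp4 were Chka, Ccnl1 and Nr4a1 (0.95 to 0.97). Snhg1, Cldnd1 and Tsr1 were nearest to Dusp5 (0.96 to 0.98), and Ccdc47, Tgif1 and Golm1 to Dusp6 (0.95 to 0.97). Zfp651, Gse1 and Arhgap10 were nearest to Dusp7 (0.94 to 0.96), and Tnfaip3, Ccl2 and Sbds to Dusp8 (0.95 to 0.97). For Dusp10 they were Spred3, Kdm6b and Ubxn8 (0.93 to 0.95), for Dusp14 Supv3l1, Krt19 and Flnc (0.92 to 0.95), and for Dusp16 Adamts6, Zfp131 and Cited2 (0.97 to 0.99). Among the 9 themselves, Dusp4 was most alike to Dusp10 (0.86), Dusp5 (0.84) and Dusp6 (0.82), and Dusp7 and Dusp16 were the least alike (-0.63).

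The question of the series, as its title gives it, was transcription that runs past the end of a gene into its neighbour. The authors' deposited table of such downstream-of-gene transcripts covered 6399 neighbouring pairs, 6 of them with a DUSP, and marked 28.5% of all pairs and RNA libraries. Dusp5 was marked as the upstream gene, toward Smc3, in all 16 RNA libraries, controls included, and Dusp4, toward Ppp1r3b, in 15. Dusp14, toward Ccl3, was marked in 4 and Dusp1, toward Fam234a, in 2. As the downstream neighbour, Dusp7 lay behind Poc1a, marked in all 16, and Dusp14 behind Tada2a, marked in 11. No library had a call of read-in, transcription entering the neighbour from the upstream gene, for any of the 6 pairs. The authors' deposited read-in estimate into Dusp7 was 0.0015 to 0.025 over the 16 libraries.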

How the data were processed

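The authors deposited expected counts per gene (whole numbers) and TPM for RNA and footprint libraries, made with RSEM per the file names. The submitters' processing notes list STAR, RSEM, Bowtie and mm10 without versions or roles, and footprint length filters were not stated. Deposited true or false calls (other) and read-in estimates, a ratio per gene pair (formula not given in the sources used here), were described only. A further 12 footprint columns matched no label and were not used.

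Counts were tested with edgeR 4.0.16 (R 4.3.3): quasi-likelihood F test, TMM, filterByExpr (minimum count 10), Benjamini-Hochberg over all genes tested, threshold 0.05. Heat RNA (6 libraries, 12747 genes), H2O2 and KCl RNA (10, 13256) and footprints (10, 10545) were fitted separately. Efficiency was the interaction of assay and stress over 20 libraries (10480 genes). Fits were tested on simulated data. Alternatives were DESeq2 1.42.0, limma 3.58.1 on log2(TPM + 1) or with voom, RLE size factors, no filter, a replicate block and each replicate left out. The genes and lists were chosen with earlier results of these data known. All 9 DUSPs are named, with each list's largest called rise and fall in RNA and in efficiency in each comparison with a control (1 of these is not reported here), and the 3 genes most like each DUSP.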

Additional observations from a re-analysis of the deposited data

Results flagged for a closer look

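The effect of H2O2 or KCl on RNA or footprints differed between 2 h and 7 h, by a test of the difference itself (edgeR, adjusted p under 0.05), in 24 cases. All values are log2 differences, 7 h against 2 h, which involve no control library.

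In RNA with H2O2, 6 genes were lower at 7 h, Dusp8 (-2.49), Dusp16 (-1.68), Dusp4 (-1.29), Dusp1 (-1.15), Dusp10 (-0.81) and Dusp5 (-0.56). Dusp6 and Dusp7 were higher, at 0.91 and 1.60. With KCl all 9 were lower at 7 h, Dusp5 (-2.76), Dusp4 (-2.28), Dusp6 (-2.06), Dusp7 (-1.68), Dusp10 (-1.11), Dusp1 (-0.68), Dusp14 (-0.43), Dusp8 (-0.34) and Dusp16 (-0.21). The Dusp8 difference was lost without the second replicate at 2 h (-0.28, adjusted p = 0.065) or 7 h (-0.25, adjusted p = 0.10), and that of Dusp16 without the second at 2 h (-0.16, adjusted p = 0.071) or the first at 7 h (-0.13, adjusted p = 0.15).

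In footprints with H2O2, Dusp7 was higher at 7 h (2.39) and Dusp8 (-1.03), Dusp16 (-1.0) and Dusp1 (-0.90) lower. Those of Dusp1 and Dusp8 were lost without the first replicate at 2 h (-0.47 and -0.60, adjusted p = 0.25 and 0.22) or at 7 h (-0.62 and -0.81, 0.23 and 0.20), and on log2(TPM + 1) (-0.72 and -0.82, 0.093 and 0.081), Dusp8 also with DESeq2 (-1.07, 0.055). That of Dusp16 was lost on log2(TPM + 1) (-0.64, 0.074). Dusp6, at 1.04 and not called, was called without the second replicate at 2 h (2.16, 0.0027), and without the low-count filter, with DESeq2 and on log2(TPM + 1) at adjusted p of 0.021 to 0.034. With KCl, Dusp6 (-2.40), Dusp5 (-2.31) and Dusp4 (-1.03) were lower, Dusp4 not without the first replicate at 2 h (-0.65, 0.26) or either at 7 h (-1.06 and -1.01, 0.12 and 0.14), nor with DESeq2 (-1.06, 0.077).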

How the results depend on the processing

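Of 134 called member values, 101 stayed called in the same direction under every alternative run, 19 of 22 in heat RNA, 57 of 62 in H2O2 and KCl RNA, 13 of 33 in footprints and 12 of 17 in efficiency. Over the alternatives of 73 uncalled values, 20 gave a call. The Dusp6 difference between the heat regimes was the 1 called value to change sign, at -0.016 on log2(TPM + 1). Counts of called members stayed within 1.5 times under 197 of 219 alternatives. On log2(TPM + 1), footprint calls went from 3 to 0 at 2 h of H2O2, from 5 to 3 at 7 h of KCl and from 4 to 2 for 7 h against 2 h of H2O2. At 7 h of H2O2 they went from 4 to 2 without the filter and to 1 with DESeq2. Leaving out 1 replicate gave 0 to 2 at 2 h of H2O2, 1 at 7 h, 1 to 3 at 2 h of KCl, 3 at 7 h, 2 to 5 for 7 h against 2 h of H2O2, 1 to 3 for H2O2 against KCl at 2 h, and 0 to 2 for efficiency at 7 h of KCl. Replicate numbers did not pair samples in the main fits. Deviations of same-numbered libraries correlated at -0.02 to 0.12 in heat RNA and -0.05 to 0.05 in other RNA. In footprints they correlated at -0.38 to 0.42, with a median of 0.20, which does not settle whether those libraries were paired. With the replicate number as a block, counts were 7 at 44 °C (6 without the block), 9 at 42 °C (8), 3 for footprints at 7 h of H2O2 (4), and otherwise the same. Without the filter, called cascade kinases went from 0 to 3 in footprints at 2 h of H2O2 and from 1 to 2 in efficiency at 7 h, and other phosphatases from 0 to 1 in efficiency at 2 h. A lone sample left in a group was assumed to vary like the other groups. Footprint depth limits the precision of those values.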
